A study of Mus musculus with 22 samples.

Results

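The 81 genes described here encode protein subunits of the respiratory chain and, for a pair of them, of ATP synthase. They were chosen by symbol from the 36555 genes of the RNA table: the Nduf genes of complex I, the Sdh genes of complex II, the Uqcr genes of complex III, the Cox genes of complex IV, and the protein-coding genes of mitochondrial DNA. The symbols matched 86 genes, of which 5 are pseudogenes in RefSeq and were dropped. The nuclear genome holds 68 of the 81, with 36 in complex I, 4 in complex II, 8 in complex III and 20 in complex IV, and mitochondrial DNA holds the other 13. Ndufa4 and Ndufa4l2 carry a complex I name and are counted with complex IV here. The symbols themselves use no measured value, but earlier results of these data were known when the set was chosen. Cox6a2, Cox7b2, Cox8b and Cox8c did not reach an abundance of 10 in 3 samples, so 64 nuclear and 13 mitochondrial genes entered the tests.

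The respiratory chain sits in the inner mitochondrial membrane. Complex I takes electrons from NADH and complex II from succinate, ubiquinone and complex III carry them on, and complex IV hands them to oxygen, while complexes I, III and IV pump the protons that drive ATP synthase. Most subunits are made in the cytosol from nuclear genes and imported, whereas core subunits of complexes I, III and IV and of ATP synthase are encoded in mitochondrial DNA, whose strands are copied into long RNAs that are cut into separate messages. Hepatocytes are rich in mitochondria.

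The study switched off YAP1 in mouse hepatoblastoma, a liver tumor, and by its title examined hepatocyte-like cells (hbHep) that come from tumor cells. RNA came from liver of 3 hbHep mice (days 121, 114 and 117), from 4 tumors labelled day 6 of YAP1 OFF and off doxycycline (day 6 tumors), from 4 tumors on doxycycline (YAP1on tumors) and from liver of 3 mice on NTBC (FAH liver). Tumors have a B6N.FVB(Cg) background and carry the transgene named Tg(CAG-rtTA3)4288Slowe/J, in which the broadly active CAG promoter drives the doxycycline-dependent activator rtTA3. The hbHep mice and the FAH mice share the genotype FAH Delta Exon 5, a deletion in the last enzyme of tyrosine breakdown, and NTBC is an inhibitor that acts upstream in the same pathway. The tumors of each group carry 1 mouse code, so treatment and animal cannot be told apart between the tumor groups, and genotype cannot be told apart from group between tumors and the other mice. RNA was extracted from liver tissue, the share of host cells in hbHep liver and the age and sex of the mice are not stated by the labels, and fewer cells of a type and less RNA per cell cannot be told apart. Values of tumors from 1 mouse measure the spread between tumors only.

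Levels are abundances, deposited values per base of gene length after a further rescaling between samples, so that genes can be compared with each other. Large values are given in k (units of 1000) or M (units of 1000000). Yap1 lay between 937 and 1308 in hbHep, 1095 and 1248 in day 6 tumors, 5263 and 10748 in YAP1on tumors, and 1136 and 1356 in FAH liver. The total deposited signal per sample was 22.4 to 26.4 M for hbHep, 19.6 to 22.6 M for tumors at day 6, 15.99 to 19.18 M for YAP1on tumors and 31.1 to 42.1 M for FAH liver. The 10 hepatocyte markers, none of them below 1 throughout a group, summed to 537 to 785 k in hbHep, 647 to 810 k in day 6 tumors, 256 to 440 k in YAP1on tumors and 1463 to 1836 k in FAH liver. The 8 cholangiocyte and progenitor markers summed to 1.78 to 1.90 k in hbHep, 3.41 to 8.55 k in day 6 tumors, 29.7 to 39.4 k in YAP1on tumors and 1.14 to 1.23 k in FAH liver. The 8 macrophage markers summed to 5.87 to 15.8 k in hbHep, 10.3 to 13.2 k in day 6 tumors, 17.7 to 27.7 k in YAP1on tumors and 3.28 to 5.83 k in FAH liver. Hepatocyte markers were thus lowest and the other 2 sums highest in YAP1on tumors. Of other lists, neutrophil markers were lower in hbHep than in either tumor group in 5 of 5 tested (medians -2.16 against YAP1on and -2.89 against day 6 tumors), and red cell precursor markers in 4 of 6. T, NK and B cell markers were lower in hbHep in 1 of 7 against YAP1on tumors and in 7 of 7 against day 6 tumors, and stellate and fibroblast markers in 4 of 8 and 6 of 8. The 4 proliferation markers were all lower in hbHep than in YAP1on tumors and all higher than in day 6 tumors and FAH liver. The part of these cell types in the results below was not tested.

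Promoters are shown for 3 nuclear genes whose RNA differed between groups, as the 250 bases before the gene start (RefSeq, GRCm38.p6), 5′ to 3′ on the strand of the gene. Capitals mark matches, on either strand, to the core GCGCATG of NRF1 and to the core CCGGAAG of ETS factors such as GABPA, both known as activators of respiratory chain genes. Cox6a1 (chr5:115348959-115349208, minus strand) and Ndufb7 (chr8:83566508-83566757, plus strand) had the largest rises in hbHep over YAP1on tumors among genes with an NRF1 match (Cox6a1) and with an ETS match (Ndufb7) in this stretch. Cox6b2 (chr7:4753095-4753344, minus strand), whose rise was the largest of the tested nuclear genes in that comparison, held no match. The first capitals of Cox6a1 are 2 overlapping NRF1 matches, one on each strand, and its second run is an ETS match on the opposite strand.
Cox6a1: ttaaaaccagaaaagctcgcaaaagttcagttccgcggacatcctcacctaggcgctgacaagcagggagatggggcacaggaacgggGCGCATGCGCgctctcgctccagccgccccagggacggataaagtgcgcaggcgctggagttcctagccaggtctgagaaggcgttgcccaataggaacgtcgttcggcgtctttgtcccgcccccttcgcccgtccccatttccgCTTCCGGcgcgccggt
Ndufb7: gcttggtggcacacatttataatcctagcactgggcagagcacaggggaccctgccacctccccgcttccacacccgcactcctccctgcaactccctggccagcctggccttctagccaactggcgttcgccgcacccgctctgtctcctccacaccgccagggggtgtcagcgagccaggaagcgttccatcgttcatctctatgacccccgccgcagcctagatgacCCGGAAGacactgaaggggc
Cox6b2: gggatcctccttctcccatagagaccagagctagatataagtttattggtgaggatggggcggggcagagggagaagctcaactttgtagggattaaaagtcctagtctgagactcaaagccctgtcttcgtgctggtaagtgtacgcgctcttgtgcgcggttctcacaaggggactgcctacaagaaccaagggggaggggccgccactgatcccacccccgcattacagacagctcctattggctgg

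RefSeq promoters were matched for 53 of the 68 nuclear genes. In the 300 bases from 250 before to 50 after the start, the NRF1 core stood in 10 of 53 (18.9%, against 5.40% of 17492 protein-coding genes), and the ETS core in 11 (20.8%, against 12.9%). The core AAGATGG of YY1, a further regulator, stood in 8 (15.1%, against 7.18%), and at least 1 of the 3 cores stood in 24 (45.3%, against 22.8%). The complexes were not alike. In complex I the NRF1, ETS and YY1 cores stood in 5, 4 and 7 of 31, so that ETS (12.9%) was at the share of all genes. For complexes II, III and IV, ETS stood in 2 of 3, 2 of 5 and 3 of 14, and YY1 in 0 of 3, 0 of 5 and 1 of 14. The 17492 genes were not limited to those with RNA in these samples. The ETS and YY1 cores can overlap by the letters AAG, and the matches describe letters, not sites of binding.

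Nuclear and mitochondrial genes took different courses across the groups. The 68 nuclear genes summed to 201, 225 and 178 k in hbHep, 107, 98.2, 96.3 and 129 k in day 6 tumors, 111, 99.0, 103 and 66.2 k in YAP1on tumors, and 393, 282 and 283 k in FAH liver. Every hbHep mouse lay above every tumor and below every FAH liver, and the tumor groups overlapped. The 13 mitochondrial genes summed to 874, 923 and 863 k in hbHep, 1550, 1524, 1692 and 1827 k in day 6 tumors, 1574, 1053, 1135 and 843 k in YAP1on tumors, and 1517, 1211 and 1189 k in FAH liver. Here hbHep lay below day 6 tumors and FAH liver and overlapped YAP1on tumors. As a share of the signal of all genes, the same sum was 3.54 to 4.24% in hbHep, 7.23 to 8.40% in day 6 tumors, 5.27 to 9.11% in YAP1on tumors and 3.56 to 3.84% in FAH liver, so that by share hbHep lay below both tumor groups and overlapped FAH liver.

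The ratio of the mitochondrial to the nuclear sum is taken within a sample and does not depend on scaling between samples. It was 4.35, 4.10 and 4.86 in hbHep, 14.5, 15.5, 17.6 and 14.2 in day 6 tumors, 14.2, 10.6, 10.97 and 12.7 in YAP1on tumors, and 3.86, 4.29 and 4.205 in FAH liver. All tumors lay above all hbHep and FAH livers, hbHep overlapped FAH liver, and the lowest day 6 tumor met the highest YAP1on tumor at 14.2. In each nuclear complex the hbHep sums lay above all tumors and below all FAH livers. As a share of the signal outside mitochondrial DNA, hbHep overlapped FAH liver in each complex. By that share it also overlapped YAP1on tumors in complex III (0.1154 to 0.161% against 0.0699 to 0.1157%). The same held in complex IV (0.232 to 0.343% against 0.137 to 0.245%). The complex II sum was 18.1 to 21.8 k in hbHep, 8.93 to 10.6 k in day 6 tumors, 6.19 to 8.61 k in YAP1on tumors and 29.3 to 39.4 k in FAH liver. By these sums complex II was the one nuclear complex whose tumor groups did not overlap. As a share of the signal outside mitochondrial DNA its tumor groups did overlap. They held 0.0484 to 0.0505% in day 6 tumors and 0.0408 to 0.0485% in YAP1on tumors.

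**Figure D1:**
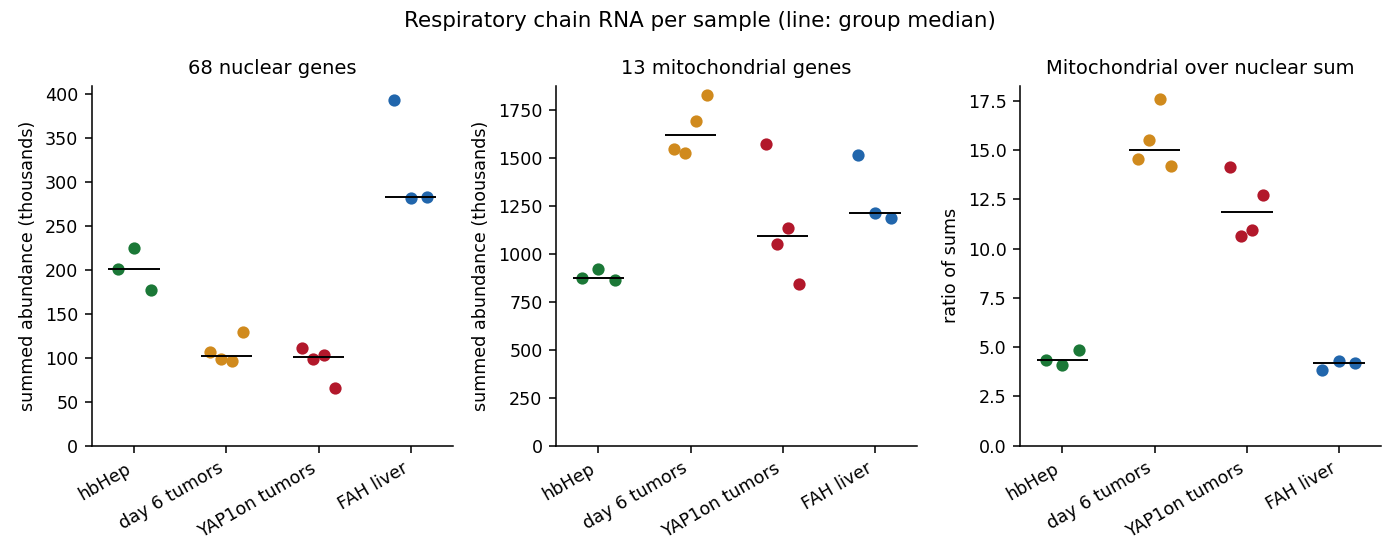
Summed abundance in k of the 68 nuclear genes (left) and the 13 mitochondrial genes (middle), and the ratio of these sums (right), with a point per sample and a line at each group's median; all axes start at 0. The ratio was 4.10 to 4.86 in hbHep, 14.2 to 17.6 in day 6 tumors, 10.6 to 14.2 in YAP1on tumors and 3.86 to 4.29 in FAH liver.

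Between hbHep and YAP1on tumors the mitochondrial genes of complexes I and III and of ATP synthase were mostly lower in hbHep, and those of complex IV did not pass the test. By limma, with p-values adjusted over all 17953 genes tested and a threshold of 0.05, 8 of 13 were lower and 0 higher in hbHep, where 26.3% of all genes were called lower and 28.8% higher. At an unadjusted p under 0.05 the counts were the same, 8 lower and 0 higher. No share of all genes was counted at the unadjusted threshold, here or below. The median log2 fold change was -1.24 over the mitochondrial genes and -0.02 over all genes.

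mt-Nd4l (ENSMUSG00000065947, mitochondrial DNA 9877 to 10173), a small membrane subunit of complex I, differed most. Its abundance was 927, 968 and 1688 in hbHep, 43098, 44412, 45441 and 52018 in day 6 tumors, 37177, 26181, 29061 and 22137 in YAP1on tumors, and 1107, 1779 and 1478 in FAH liver. All 8 tumors lay far above all other samples, and hbHep overlapped FAH liver. The gene fell 24.5-fold in hbHep against YAP1on tumors (log2 fold change -4.61, SE 0.23, limma adjusted p = 5.68e-10) and 40.1-fold against day 6 tumors (log2 fold change -5.33, SE 0.23, adjusted p = 1.11e-10), and differed from FAH liver by -0.31 (adjusted p = 0.333).

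mt-Nd4 (ENSMUSG00000064363, mitochondrial DNA 10167 to 11544), a proton-pumping subunit, overlaps mt-Nd4l by a few bases and is known to share a message with it. It was 32.8, 35.1 and 45.1 k in hbHep, 171, 177, 196 and 201 k in day 6 tumors, 155, 115, 116 and 91.8 k in YAP1on tumors, and 27.1, 33.5 and 41.5 k in FAH liver. The groups separated as for mt-Nd4l, with a smaller difference between hbHep and YAP1on tumors (-1.65, SE 0.26, limma adjusted p = 8.03e-05). mt-Nd4l made up 2.75, 2.68 and 3.61% of the sum of the pair in hbHep, 18.8 to 20.6% in day 6 tumors, 18.6 to 20.1% in YAP1on tumors, and 3.93, 5.05 and 3.44% in FAH liver. This share split the tumors from the mice with FAH Delta Exon 5. Genotype, tumor state and any difference in library handling cannot be told apart there. How reads were divided between the overlapping genes of this pair was not tested, which also limits the fold changes of mt-Nd4l.

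mt-Nd2 (ENSMUSG00000064345, mitochondrial DNA 3914 to 4951), another membrane subunit, was 12.7, 13.2 and 20.3 k in hbHep, 117, 125, 128 and 141 k in day 6 tumors, 85.7, 55.7, 67.9 and 48.9 k in YAP1on tumors, and 8.75, 13.1 and 13.2 k in FAH liver. The hbHep mice lay below all tumors (-2.07 against YAP1on tumors, SE 0.25, limma adjusted p = 5.53e-06) and overlapped FAH liver. mt-Cytb (ENSMUSG00000064370, mitochondrial DNA 14145 to 15288), the cytochrome b of complex III, was 33.2, 31.4 and 42.2 k in hbHep, 191, 196, 209 and 229 k in day 6 tumors, 188, 131, 138 and 108 k in YAP1on tumors, and 63.99, 61.4 and 62.3 k in FAH liver. It was lower in hbHep than in YAP1on tumors (-1.97, SE 0.27, limma adjusted p = 1.67e-05) and than in FAH liver (-0.83, limma adjusted p = 0.0326). The call against FAH liver was lost with quantile normalization (-0.063, limma adjusted p = 0.872) and with the sum outside mitochondrial DNA (-0.27, limma adjusted p = 0.358).

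The other complex I genes that fell in hbHep against YAP1on tumors were mt-Nd5 (-1.92) and mt-Nd6 (-2.22). mt-Nd6 is encoded on the opposite strand and its end overlaps that of mt-Nd5, and the labels do not state whether quantification used strand. The ATP synthase genes mt-Atp6 (-1.24) and mt-Atp8 (-1.12) also fell. mt-Nd1 (-0.32) and mt-Nd3 (0.21) did not pass.

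mt-Co1 (ENSMUSG00000064351, mitochondrial DNA 5328 to 6872), the catalytic subunit of complex IV, was the most abundant gene of the 13 in every group. It was 560, 569 and 487 k in hbHep, 468, 431, 491 and 551 k in day 6 tumors, 577, 367, 384 and 279 k in YAP1on tumors, and 1045, 784 and 783 k in FAH liver. The hbHep mice overlapped both tumor groups and lay below FAH liver, and no comparison of this gene passed the test with the trend of limma. Without the trend it was called lower in hbHep than in FAH liver (-0.68, limma adjusted p = 0.0301). mt-Co1, mt-Co2 and mt-Co3 stood at 0.47, 0.12 and 0.58 against YAP1on tumors, none of them called, and quantile normalization turned the first to -0.49 and the second to -0.50, with mt-Co3 at 0.22.

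The makeup of mitochondrial RNA, which is free of scaling between samples, therefore differed. mt-Co1 took 56.4 to 64.1% of the sum of the 13 genes in hbHep, 28.3 to 30.2% in day 6 tumors, 33.1 to 36.7% in YAP1on tumors and 64.8 to 68.9% in FAH liver. mt-Nd4 took 3.75 to 5.23% in hbHep, 10.99 to 11.6% in day 6 tumors, 9.87 to 10.9% in YAP1on tumors and 1.79 to 3.49% in FAH liver. No groups overlapped for either gene, and hbHep lay between the tumors and FAH liver, nearer to FAH liver. The share of mt-Nd2 followed the same order, but not every gene did. mt-Nd1 took 6.33 to 7.25% in hbHep, which overlapped both tumor groups and lay above FAH liver (4.15 to 4.42%). mt-Cytb took 3.403 to 4.89% in hbHep, which lay below all tumors and overlapped FAH liver (4.22 to 5.24%). The pair mt-Atp8 and mt-Atp6, also known to share a message, changed less: mt-Atp8 was 6.99 to 10.2% of the pair in hbHep, 6.40 to 6.77% in day 6 tumors, 7.65 to 8.08% in YAP1on tumors and 7.86 to 9.39% in FAH liver.

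**Figure D2:**
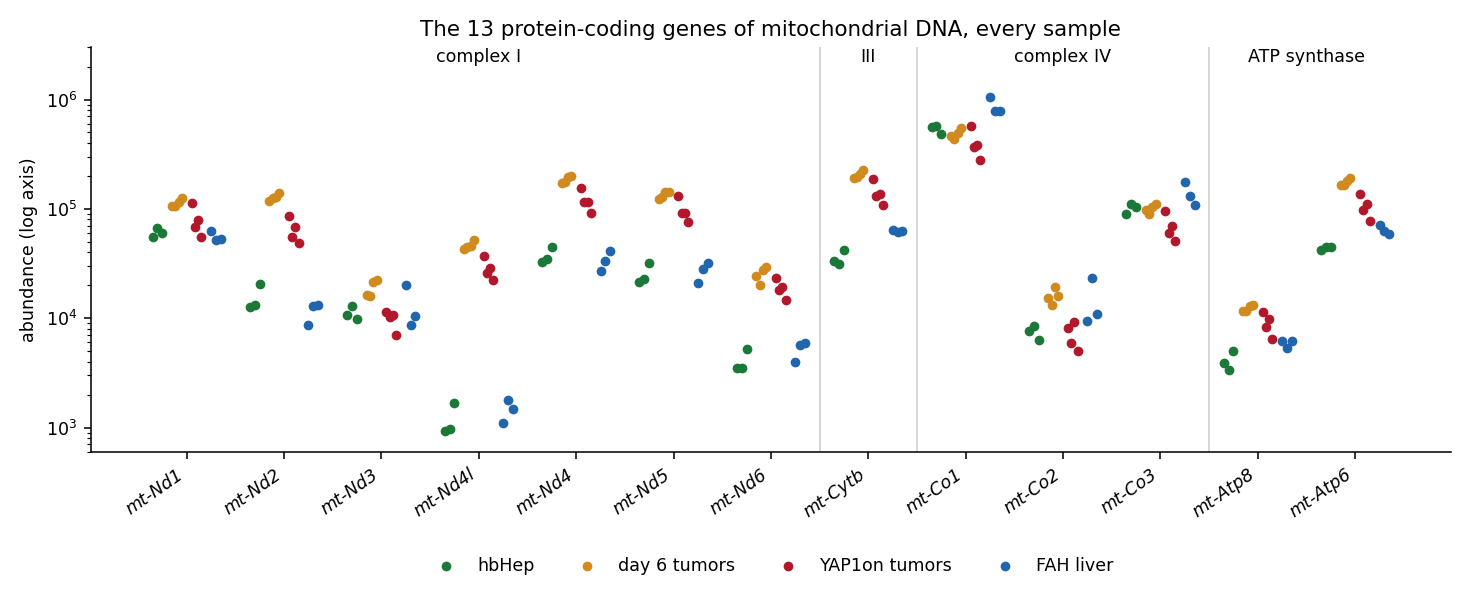
Abundance (log axis) of the 13 protein-coding genes of mitochondrial DNA, with a point per sample and, for each gene, hbHep, day 6 tumors, YAP1on tumors and FAH liver from left to right. mt-Nd4l was 927 to 1688 in hbHep and 22137 to 52018 in the tumors, whereas mt-Co1 of hbHep overlapped that of both tumor groups.

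Some values of mitochondrial genes are uncertain because kallisto divides reads among like sequences. Gm10925, for which RefSeq lists mt-Atp6 as a synonym, was 5907 to 12352 in hbHep, 524 to 1362 in day 6 tumors, 18290 to 35168 in YAP1on tumors and 1115 to 9823 in FAH liver. Adding it to mt-Atp6, chosen after its values were seen, ended one call of mt-Atp6 (given with the tumor groups below). The predicted genes Gm19220, Gm28437, Gm28661 and Gm29216 also lay at 43307 or above in every sample, and their likeness to mitochondrial DNA was not examined here.

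Nuclear genes rose in hbHep over YAP1on tumors in all 4 complexes. Of 64, 50 were higher and 0 lower by limma, where 28.8% of all genes were higher and 26.3% lower, and 0 were lower at an unadjusted p under 0.05. Their median log2 fold change was 1.06. In 48 of the 50 the hbHep mice lay above all YAP1on tumors, and in 2 the groups overlapped. Overlap was counted for these called genes only and not over all genes, here and in the comparisons below. By complex, 28 of 36 genes of complex I rose (median 1.03), 4 of 4 of complex II (1.45), 7 of 8 of complex III (0.88) and 11 of 16 of complex IV (1.05).

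Ndufv1 (ENSMUSG00000037916, chromosome 19, 4007499 to 4012755), the subunit of complex I that binds NADH, was 3301, 4711 and 3017 in hbHep, 1095, 1262, 1057 and 1028 in day 6 tumors, 759, 968, 984 and 883 in YAP1on tumors, and 6480, 4491 and 4706 in FAH liver. It was 4.03-fold higher in hbHep than in YAP1on tumors (log2 fold change 2.01, SE 0.17, limma adjusted p = 1.18e-07), without overlap. Ndufa13 (1.85) and Ndufb7 (1.77), accessory subunits of complex I, followed it.

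Sdhb (ENSMUSG00000009863, chromosome 4, 140961271 to 140979198), the iron-sulfur subunit of complex II, was 6590, 7790 and 5994 in hbHep, 3143, 3266, 2933 and 3561 in day 6 tumors, 2258, 2615, 2701 and 1974 in YAP1on tumors, and 15849, 11377 and 11416 in FAH liver. None of these 4 groups overlapped, and the difference of hbHep from YAP1on tumors was 1.51 (SE 0.15, limma adjusted p = 1.01e-06). The flavoprotein gene Sdha (1.39) and the membrane anchors Sdhc (1.70) and Sdhd (1.08) rose as well.

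The smallest rises that passed were those of Ndufs5 (0.56), Ndufc1 (0.59), Uqcrc2 (0.64), a core subunit of complex III, and Ndufa7 (0.66). The call of Ndufa7 was lost without YAP1on tumor 4, hbHep mouse 1 or hbHep mouse 2, and that of Ndufs5 without hbHep mouse 1 or 2. The 14 nuclear genes that did not pass included Cox7c (0.50), Ndufa4 (0.59) and Cox7a2l (-0.08), which is known for joining complexes III and IV.

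**Figure D3:**
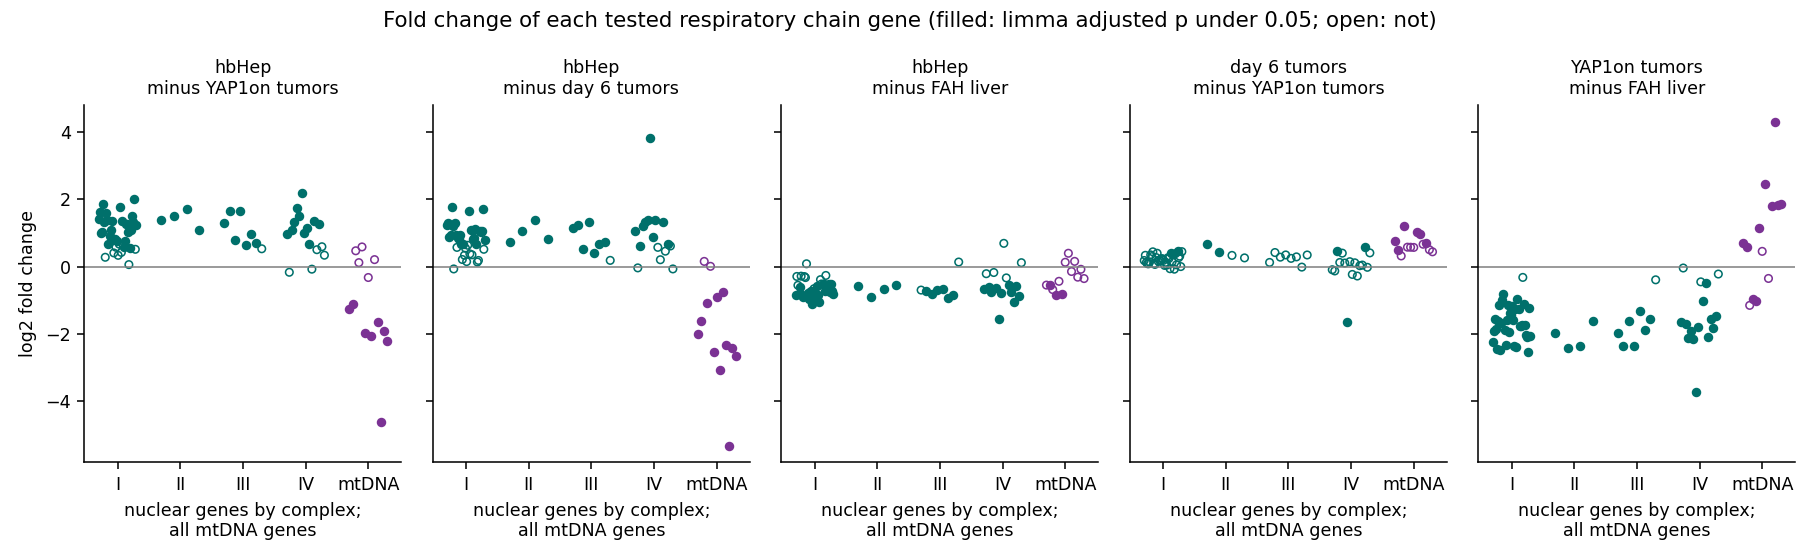
Log2 fold change of each tested gene in 5 comparisons (panels), with nuclear genes by complex and all genes of mitochondrial DNA at the right of each panel; filled points have a limma adjusted p under 0.05 and open points do not. In hbHep minus YAP1on tumors 50 of 64 nuclear genes are called higher and 8 of 13 mitochondrial genes lower; the comparisons share samples, and in hbHep minus FAH liver the nuclear calls depend on the scaling.

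Against day 6 tumors, which share the hbHep mice with the comparison above, 45 of 64 nuclear genes were higher and 0 lower in hbHep by limma, where 24.1% of all genes were higher and 21.7% lower. The unadjusted p was under 0.05 for 51 higher and 0 lower. The median was 0.82, and in all 45 called genes the hbHep mice lay above all day 6 tumors. The highest were Cox6b2 (3.800), Ndufa13 (1.77), Ndufv1 (1.70) and Ndufb7 (1.64), and the lowest that passed were Uqcrc2 (0.40), Uqcrb (0.52), Cox5a (0.61) and Ndufb3 (0.66). Of the mitochondrial genes 11 were lower and 0 higher, with a median of -2.0001: mt-Nd4l, mt-Nd2 (-3.08) and mt-Nd6 (-2.66) led, and mt-Co1 (0.15) and mt-Co3 (0.01) did not pass.

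Against FAH liver, nuclear genes were lower in hbHep. By limma 46 of 64 were lower and 0 higher, where 17.1% of all genes were lower and 19.9% higher, and 53 were lower and 0 higher at an unadjusted p under 0.05. The median was -0.67. In 45 of the 46 the hbHep mice lay below all FAH livers. Of the 46, 25 were in complex I, 4 in complex II, 6 in complex III and 11 in complex IV.

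The lowest were Cox6b2 (-1.56), Ndufb3 (-1.11), Cox7c (-1.06) and Ndufb9 (-1.04). Ndufb3, an accessory subunit of complex I, was 1166, 1264 and 1019 in hbHep and 2982, 2410 and 2124 in FAH liver, without overlap (SE 0.18, limma adjusted p = 0.000207). Among the called genes close to FAH liver were Ndufv1 (-0.51), Ndufs1 (-0.52) and Ndufs7 (-0.53), subunits of the electron path of complex I, and these calls were lost without hbHep mouse 1, hbHep mouse 3 or FAH liver 1. Ndufa8 (0.08) and Cox6a1 (-0.18) did not pass.

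The count of 46 depended on single samples and on the scaling. It was 21 without FAH liver 1, 24 without hbHep mouse 3 and 30 without hbHep mouse 1. FAH liver has the larger total signal, and rescaling by the sum of all genes outside mitochondrial DNA moved the median of all genes to 0.53 and left 4 nuclear genes lower and 5 higher. Relative to the median of all genes, the nuclear median was -0.29 with quantile normalization and -0.67 in the main scaling. As a share of the signal outside mitochondrial DNA the 68 genes held 0.754 to 1.08% in hbHep, 0.502 to 0.597% in day 6 tumors, 0.436 to 0.707% in YAP1on tumors and 0.860 to 1.03% in FAH liver, so that hbHep overlapped FAH liver and lay above both tumor groups.

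Mitochondrial genes differed less between hbHep and FAH liver. By limma mt-Cytb (-0.83), mt-Co2 (-0.85) and mt-Atp8 (-0.53) were lower and 0 were higher, where 17.1% of all genes were lower and 19.9% higher. With the unadjusted p under 0.05 the counts of mitochondrial genes were again 3 lower and 0 higher. The count of 3 was 0 without hbHep mouse 1 and 1 without hbHep mouse 2 or any one FAH liver, and the median of -0.36 turned to 0.25 with quantile normalization and to 0.20 with scaling by the sum outside mitochondrial DNA.

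Of 64 nuclear genes 6 were higher and 1 was lower in day 6 tumors by limma, where 12.8% of all genes were higher and 10.8% lower, and the median was 0.19. The share of nuclear genes called higher was thus below that of all genes. At an unadjusted p under 0.05, 16 were higher and 1 lower, and 54 of the 64 had a log2 fold change above 0. No share of all genes was counted for either, and the median over all genes was 0.02. The nuclear median turned to -0.08 with scaling by the sum outside mitochondrial DNA. Those higher were Sdha (0.67), Cox8a (0.58), Cox5a (0.48), Ndufs7 (0.47), Sdhb (0.44) and Ndufs1 (0.40), and the lower one was Cox6b2.

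Sdha was 1130, 1361, 1145 and 1172 in day 6 tumors and 591, 778, 840 and 822 in YAP1on tumors, without overlap (SE 0.12, limma adjusted p = 0.000683). Cox8a, a small subunit of complex IV, was 3964, 3923, 3713 and 5099 in day 6 tumors and 2483, 2912, 3262 and 2472 in YAP1on tumors, again without overlap (SE 0.14, limma adjusted p = 0.00631). The calls of Sdha, Cox8a and Cox6b2 held without any one sample, whereas those of Cox5a, Ndufs7, Sdhb and Ndufs1 were each lost without at least 5 single samples in turn. The count of 6 was 2 without YAP1on tumor 4 or without day 6 tumor 1, 2 or 4.

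Of the mitochondrial genes 6 were higher and 0 lower in day 6 tumors by limma, where 12.8% of all genes were higher and 10.8% lower. The 6 were mt-Co2 (1.20), mt-Nd2 (1.01), mt-Nd3 (0.96), mt-Atp6 (0.76), mt-Nd4l (0.71) and mt-Atp8 (0.49). mt-Co2, which carries the copper site that takes electrons from cytochrome c, was 15.2, 13.3, 19.4 and 15.9 k in day 6 tumors and 8.12, 5.93, 9.16 and 5.02 k in YAP1on tumors, without overlap (SE 0.26, limma adjusted p = 0.00278). All 13 had a log2 fold change above 0, with a median of 0.58, against 0.02 over all genes. At an unadjusted p under 0.05, 12 were higher and 0 lower. No share of all genes was counted for the sign or the unadjusted p. With quantile normalization the median was 0.12, 1 gene was called, and mt-Co3 and mt-Nd1 stood at -0.019 and -0.017. With the sum outside mitochondrial DNA the median was 0.31 and 3 genes were called. The count of 6 was 11 without YAP1on tumor 1 and 3 without YAP1on tumor 2, YAP1on tumor 4 or day 6 tumor 4, and with Gm10925 added mt-Atp6 stood at 0.46 (limma adjusted p = 0.201).

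Against FAH liver, 59 of 64 nuclear genes were lower in YAP1on tumors and 0 higher by limma, where 33.5% of all genes were lower and 34.4% higher. The unadjusted p was also under 0.05 for 59 lower and 0 higher. The median was -1.71, and in 58 of the 59 the tumors lay below all FAH livers. Lowest were Cox6b2 (-3.73), Ndufv1 (-2.53), Ndufa5 (-2.48) and Ndufa13 (-2.45), and closest to FAH liver among called genes were Cox7a2l (-0.47), Ndufa8 (-0.81), Ndufc1 (-0.98) and Ndufa7 (-0.98). Scaling by the sum outside mitochondrial DNA moved the median of all genes to 1.04 and left 41 nuclear genes lower and 4 higher.

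Of the mitochondrial genes 8 were higher in YAP1on tumors than in FAH liver and 2 were lower by limma. Of all genes 34.4% were higher and 33.5% lower. mt-Nd4l (4.30), mt-Nd2 (2.46), mt-Nd6 (1.86), mt-Nd5 (1.84), mt-Nd4 (1.81), mt-Cytb (1.14), mt-Atp6 (0.69) and mt-Atp8 (0.58) were higher. mt-Co3 (-1.02) and mt-Co2 (-0.97) were lower, and both turned above 0 with quantile normalization (0.36 and 0.15) or with the sum outside mitochondrial DNA (0.01 and 0.06). mt-Co1 stood at -1.15 (limma adjusted p = 0.0547), a value called lower by limma without the trend (adjusted p = 0.000299). With quantile normalization it stood at 0.74 and was called higher (limma adjusted p = 0.0439).

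Several complex IV subunits have alternative isoforms that other tissues are known to use. Cox6b2 (ENSMUSG00000051811, chromosome 7, 4751792 to 4753094), known as a testis isoform of Cox6b1, was 121, 46.8 and 133 in hbHep, 4.68, 5.45, 6.30 and 6.17 in day 6 tumors, 18.8, 21.5, 24.1 and 14.7 in YAP1on tumors, and 291, 263 and 260 in FAH liver. No 2 of the 4 groups overlapped. Against day 6 tumors hbHep was 13.9-fold higher (log2 fold change 3.800, SE 0.31, limma adjusted p = 1.87e-07), and day 6 tumors were lower than YAP1on tumors by -1.63 (SE 0.28, adjusted p = 0.000575). The 2 libraries of hbHep mouse 3 gave 89.3 and 177. Cox6b2 was 0.902 to 3.58% of the pair with Cox6b1 in hbHep, 0.283 to 0.437% in day 6 tumors, 1.08 to 1.38% in YAP1on tumors and 3.35 to 4.34% in FAH liver.

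Cox7a1 (ENSMUSG00000074218, chromosome 7, 30184171 to 30186030), the heart and muscle isoform of Cox7a2, was 189, 99.3 and 69.7 in hbHep, 23.4 to 57.2 in day 6 tumors, 37.3 to 63.4 in YAP1on tumors, and 48.7 to 92.9 in FAH liver. It was higher in hbHep than in YAP1on tumors (1.14, SE 0.35, limma adjusted p = 0.0121), a call lost without hbHep mouse 1 (adjusted p = 0.0870). The sum of 7 muscle and brown fat markers, with Ucp1 below 1 in every hbHep mouse, was 62.5 to 354 in hbHep and 60.2 to 97.2 in YAP1on tumors, and its part in this result was not tested. In day 6 against YAP1on tumors it stood at -0.23, not called.

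The remaining alternative isoforms were low. Ndufa4l2, known as a gene induced by low oxygen, was 57.6 to 67.1 in hbHep, 50.5 to 89.9 in day 6 tumors, 43.0 to 64.8 in YAP1on tumors and 48.4 to 78.9 in FAH liver, and passed no comparison. Cox4i2, the lung isoform of Cox4i1, was at most 0.269% of its pair in any sample. Cox6a2 stayed at or below 10.6 and Cox8b at or below 5.39.

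**Figure D4:**
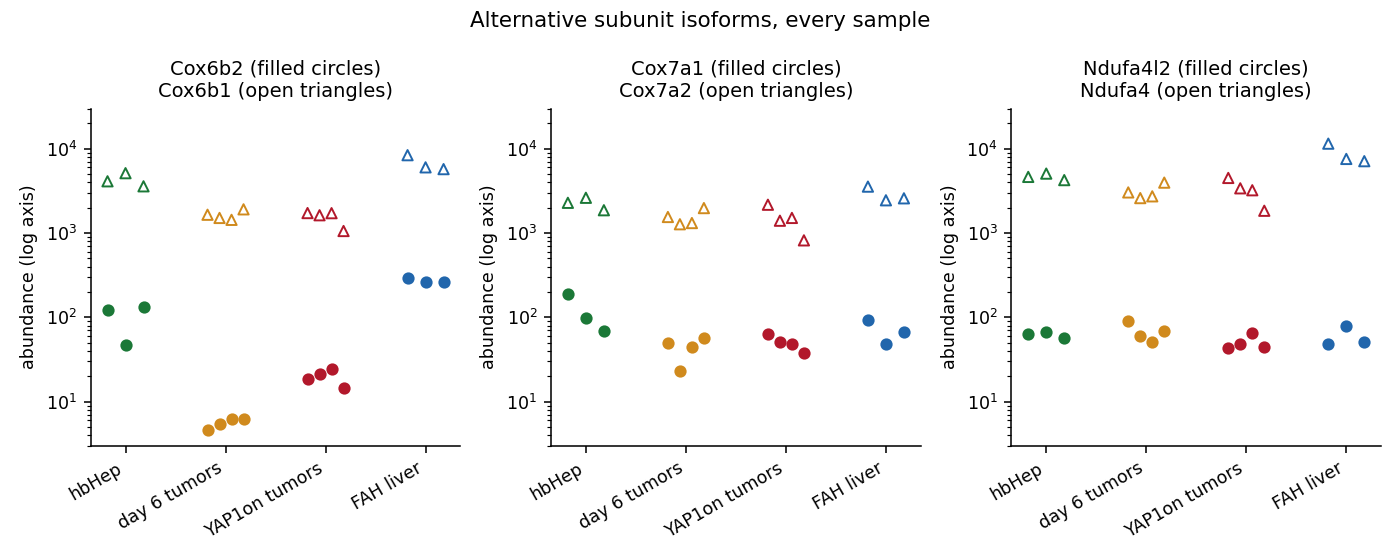
Abundance (log axis) of Cox6b2, Cox7a1 and Ndufa4l2 (filled circles) and of their main counterparts Cox6b1, Cox7a2 and Ndufa4 (open triangles) in every sample, with hbHep, day 6 tumors, YAP1on tumors and FAH liver from left to right. Cox6b2 was 46.8 to 133 in hbHep, 4.68 to 6.30 in day 6 tumors, 14.7 to 24.1 in YAP1on tumors and 260 to 291 in FAH liver.

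Other mitochondrial genes of the nucleus were read from 11 lists, as counts of called genes beside the background given above for each comparison. In hbHep against YAP1on tumors by limma, ATP synthase had 12 of 18 genes higher (median 0.92), with the subunits Atp5k (2.76) and Atp5b (1.73) in the lead. Complex I assembly had 13 of 17 higher (0.63), and assembly of complexes II to IV 24 of 32 (0.97), with the copper chaperone Cox17 (2.04) and the heme enzyme Cox10 (1.60). Cytochrome c and ubiquinone had 12 of 14 higher (0.84), among them Coq5 (2.01) and Coq9 (1.66) of ubiquinone synthesis. This list also holds Cyc1, a subunit of complex III that the choice by symbol did not match. The called genes of these lists named here all rose.

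The tricarboxylic acid cycle had 14 of 14 genes higher in hbHep (1.09), among them Fh1 (1.74), and import and cristae 14 of 17 (1.14), led by the chaperone Hspa9 (1.78) and Chchd3 (1.46). Replication and transcription of mitochondrial DNA had 8 of 17 higher and 2 lower (0.33), with Top1mt (1.14) and the helicase Twnk (1.01) higher and Primpol (-0.41) and Mterf3 (-0.40) lower. RNA processing and stability had 12 of 19 higher and 1 lower (0.41), with Lrpprc (1.47), which stabilises mitochondrial messages, and the tRNA-end nuclease Elac2 (1.33) higher and Fastkd2 (-0.64) lower.

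The mitochondrial ribosome had 30 of 42 genes higher and 3 lower (0.59), with Mrps18a at 2.42 and Mrps6 at -1.04. Among 12 nuclear regulators 4 were higher and 2 lower (-0.02): the receptor Esrra (1.59) and the coactivator Ppargc1b (1.30) were higher, and Pprc1 (-1.16) and Perm1 (-0.60) were lower. Esrra averaged 542 ± 66.2 in hbHep and 179 ± 21.2 in YAP1on tumors (SD, n = 3 and 4), with an SE of 0.14 and a limma adjusted p = 2.36e-07. Among uncouplers and other quinone enzymes 7 of 11 were higher and 2 lower (0.65), with proline dehydrogenase Prodh at 2.63 and the adenine nucleotide carrier Slc25a4 at -1.77.

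Against FAH liver the same lists had fewer higher genes in hbHep than lower ones, apart from the regulators, which had 2 of each. The lists were read in the main scaling only, and the respiratory chain calls of this comparison depended on the scaling. ATP synthase had 12 genes lower and complex I assembly 8, assembly of complexes II to IV had 1 higher and 17 lower, and the mitochondrial ribosome 1 higher and 20 lower. The tricarboxylic acid cycle had 4 higher, among them Idh2 (1.41) and citrate synthase Cs (1.21), and 6 lower. Ucp2, an uncoupling protein relative, was 2035 ± 210 in hbHep and 259 ± 30.9 in FAH liver (SD, n = 3 each, log2 fold change 2.97, SE 0.14, limma adjusted p = 1.10e-09), and Sqor, the sulfide oxidising enzyme, was lower (-1.59).

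In day 6 tumors against YAP1on tumors, Coq8a, a kinase-like protein of ubiquinone synthesis, was 2957 ± 179 in day 6 tumors and 1102 ± 237 in YAP1on tumors (SD, n = 4 each, log2 fold change 1.45, SE 0.14, limma adjusted p = 1.97e-06). Prodh (1.30), the copper protein Sco2 (1.16) and Cs (1.07) were higher. Slc25a4 (-1.38), Mrps6 (-0.88), Atpif1 (-0.56), Ucp2 (-0.53) and Idh2 (-0.53) were lower. Genes higher were 2 of 18 for ATP synthase, 2 of 17 and 5 of 32 for assembly of complex I and of II to IV, and 3 of 14 for cytochrome c and ubiquinone. Replication and transcription had 4 of 17, RNA processing 4 of 19, the ribosome 5 of 42 and the tricarboxylic acid cycle 4 of 14. Import and cristae had 5 of 17, regulators 0 of 12 and uncouplers 2 of 11, against 12.8% of all genes.

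**Figure D5:**
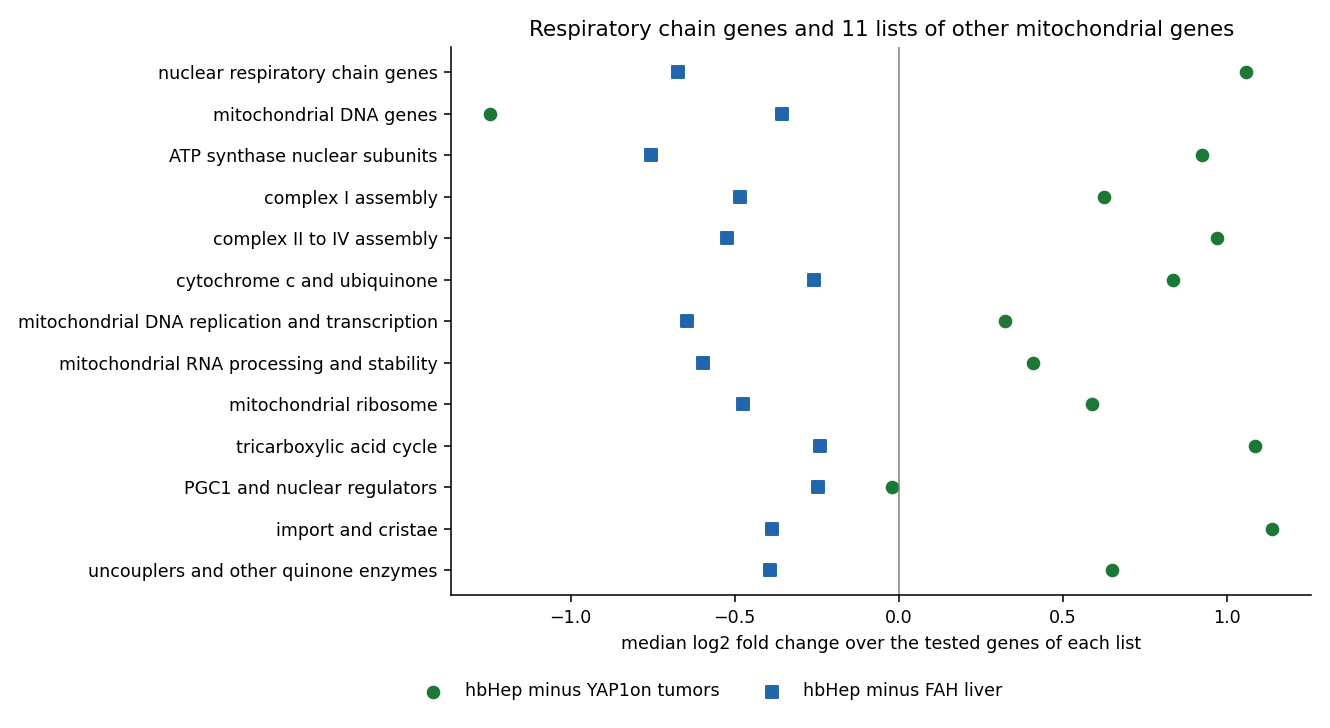
Median log2 fold change in the main scaling over the tested genes of the nuclear respiratory chain, of mitochondrial DNA and of 11 lists of other mitochondrial genes, for hbHep minus YAP1on tumors (circles) and hbHep minus FAH liver (squares). The lists were not read under other scalings. The nuclear respiratory chain genes stood at 1.06 and -0.67 and the genes of mitochondrial DNA at -1.24 and -0.36, the last of which turned above 0 under 2 other scalings.

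Open chromatin at the gene starts was read from interval lists of 5 ATAC libraries, 1 each of YAP1on, day 14, day 33 and day 64 of Yap Off, and liver labelled WT, which allow no test. Of the 53 nuclear genes with a RefSeq start, 50 (94.3%) had an interval within 250 bases in the YAP1on list and 51 (96.2%) in each of the other 4, against 63.1, 64.9, 63.5, 63.9 and 63.4% of all 17492 protein-coding genes in that order of libraries. The gene starts were thus marked in nearly all members in every library. Intervals of the YAP1on list had a median width of 21 bases, against 67, 72, 70 and 61 bases in the lists of day 14, 33 and 64 and of WT liver, so covered lengths are not compared between that list and the rest. Ndufa12 had no interval in the YAP1on list alone, and Cox7b2 and Cox8b, which are nearly silent in the RNA, had none in any list. Cox6b2 had 47, 39 and 64 bases covered within 250 bases of its start at day 14, 33 and 64 and 31 in WT liver, against 369, 303, 269 and 327 for Cox6a1.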

How the data were processed

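RNA was measured in 17 libraries and open chromatin in 5. The authors deposited RNA values as a signal per gene, taken here to be scaled reads per base. The submitters' processing notes name kallisto 0.45.0, sleuth, bcl2fastq and the build GRCm38.p6. Read numbers per library were not derived, so no counting interval is given. The ATAC intervals were deposited on mm10, and the same notes name Picard, SAMtools, BWA, cutadapt and bcl2fastq. Neither the interval caller nor a shift for the transposase is stated there.

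Each hbHep mouse had 2 technical libraries, whose mean was used, leaving 14 samples. Values were divided by median-of-ratios factors (0.963 to 1.10), here called abundance. Genes entered the tests with an abundance of 10 or more in 3 or more samples (17953 of 36555 genes). Tests used log2(abundance + 1) with limma 3.58.1 (lmFit, eBayes with trend) in R 4.3.3, 1 model of the 4 groups, Benjamini-Hochberg adjustment over all genes tested and a threshold of 0.05. The log2 scale with this pseudocount understates fold changes of low genes. The estimate of spread in this model pools tumors of 1 mouse per group with separate mice, and also enters hbHep against FAH liver. With only those 2 groups fitted, 2244 of all genes were called higher and 1782 lower in hbHep, against 3566 and 3062 in the main fit. The procedure was tested on simulated data. RefSeq tables gave 35912 symbols, gene coordinates and promoters. Motifs were searched on both strands with Python 3.11.15, pandas 2.3.3 and numpy 2.4.6, and figures drawn with matplotlib 3.10.9.

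Members and lists were chosen with earlier results of these data known. Named genes are the 13 mitochondrial genes, the Sdh genes, the complex IV isoforms, the 4 highest and 4 lowest called nuclear genes per comparison, and up to 2 called genes at each end of a list, of which some are not reported here. Ndufa8 and Cox7c, where not called, and the predicted genes were named after their values were seen. Alternatives were other scalings, pseudocounts, filters, single hbHep libraries, 2-group fits, no trend, a replicate block, leaving out each sample, and other interval distances.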

Additional observations from a re-analysis of the deposited data

Results flagged for a closer look

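In 6 of 115 groups of 4 tumors tested with Dixon's criterion, 1 tumor stood apart from the other 3, and chance flags about 1 in 20. Cox6a2 was 6.98 in day 6 tumor 2, against 1.54 to 2.17 in the others, a level below the filter for testing. The other 5 were low values of YAP1on tumor 4: Cox6b1 at 1058 (others 1627 to 1727), Ndufa5 at 264 (412 to 418), Ndufa8 at 937 (1247 to 1292), Ndufb3 at 462 (707 to 744) and Ndufs5 at 313 (540 to 550). The nuclear sum of YAP1on tumor 4 was also the lowest of that group, 66.2 k (units of 1000) against 99.0 to 111 k. Without it, 46 nuclear genes were higher in hbHep than in YAP1on tumors, against 50 with it.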

How the results depend on the processing

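Of 2700 values of named genes (225 under each of 12 alternatives that keep all samples), 2462 stayed on their side of the threshold without a called value changing sign, 174 lost a call, 42 gained one and 22 reversed. For nuclear genes of hbHep against YAP1on tumors the count higher was 39 to 54 over these alternatives and 44 to 57 on leaving out 1 sample (lower: 0), and quantile normalization or scaling by the sum outside mitochondrial DNA called 1 lower. Mitochondrial genes lower were 8 throughout on leaving out 1 sample, with 0 to 1 higher, and 1 was higher without the trend. Against day 6 tumors the counts on leaving out 1 sample were 42 to 52 nuclear genes higher and 9 to 11 mitochondrial genes lower, with 0 in the other direction for each.

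Against FAH liver, hbHep had 21 to 52 nuclear genes lower and 0 to 3 mitochondrial genes lower on leaving out 1 sample, with 0 higher. Nuclear genes lower were 11 with quantile normalization and 4 with the sum outside mitochondrial DNA, which called 5 higher. Mitochondrial genes higher were 3 under both, and lower 0 under both, 0 with no filter, 0 with only the 2 groups and 1 with the replicate block. For day 6 against YAP1on tumors, nuclear genes higher were 3 with quantile normalization, 2 with the sum, 3 with no filter and 2 with the block (2 to 8 on leaving out 1 sample), and lower 2 under the first 3 (1 on leaving out 1 sample); mitochondrial genes higher were 1 and 3 under those scalings (3 to 11, with 0 lower, on leaving out 1 sample). For YAP1on tumors against FAH liver, leaving out 1 sample gave 58 to 60 nuclear genes lower and 0 higher, 7 to 8 mitochondrial genes higher and 2 to 3 lower; 4 nuclear genes were higher with the sum and 1 with no filter, and 0 mitochondrial genes lower under both scalings. Medians on leaving out 1 sample, nuclear and mitochondrial, were 0.92 to 1.15 and -1.38 to -1.11 (hbHep against YAP1on tumors), 0.76 to 0.91 and -2.03 to -1.95 (day 6 tumors), -0.76 to -0.52 and -0.55 to -0.26 (FAH liver), 0.01 to 0.27 and 0.46 to 0.76 (day 6 against YAP1on tumors), and -1.79 to -1.54 and 0.56 to 0.83 (YAP1on tumors against FAH liver).

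Scaling by the sum outside mitochondrial DNA moved the median of all genes to -0.49 (hbHep against YAP1on tumors), -0.22 (day 6 tumors), 0.53 (FAH liver), -0.24 (day 6 against YAP1on tumors) and 1.04 (YAP1on tumors against FAH liver), and the share of calls that were higher to 24.5, 36.03, 91.2, 22.01 and 85.7%, against 52.2, 52.6, 53.8, 54.4 and 50.6%. With this scaling, log2 fold changes of hbHep against FAH liver turned to 0.38 (Cox6a1), 0.0054 (Cox7a2l), 0.035 (Ndufs1), 0.027 (Ndufs7), 0.0036 (Ndufs5), 0.043 (Ndufv1), 0.019 (Sdhd) and 0.023 (mt-Atp8). Those of YAP1on tumors against FAH liver turned to 0.011 (Cox7a2), 0.55 (Cox7a2l), 0.79 (Ndufa4l2), 0.046 (Ndufa7), 0.22 (Ndufa8), 0.053 (Ndufc1), 0.0602 (mt-Co2), 0.0096 (mt-Co3) and 0.68 (mt-Nd3), and with quantile normalization to 0.32 (Cox7a2l), 0.74 (mt-Co1), 0.15 (mt-Co2), 0.36 (mt-Co3) and 0.80 (mt-Nd3). The cause was not tested.

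With the replicate number as a block, nuclear genes called were 47 higher, 43 higher, 42 lower, 2 higher and 1 lower, and 59 lower in the order of the comparisons above; same-numbered samples correlated at -0.23 to 0.19 in their deviations, so the numbers are not taken to pair samples. A gene start inside an interval was found for 30.2% (YAP1on), 58.5% (day 14), 73.6% (day 33), 60.4% (day 64) and 69.8% (WT liver) of members, against 18.7, 48.1, 50.6, 49.3 and 46.3% of all genes. Read depth is not known, so the precision of low genes such as Cox6b2 rests on the spread between samples alone.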
